A study of Ovis aries with 18 samples.

Results

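The genes described here are 10 components of the Wnt signalling pathway, namely ZNRF3, RNF43, CTNNB1, AXIN1, AXIN2, APC, GSK3B, LRP6, TCF7L1 and TCF7L2, together with 1 cytosine in the promoter of ZNRF3 in sperm. They were chosen by name. Of the 10 genes, 8 had counts in the embryo table of 20092 genes, all 8 passed the filter on low counts that kept 16488 genes, and CTNNB1 and GSK3B are not analysed here. The cytosine lies at position 77502293 of chromosome 17 on the minus strand (build Oar_rambouillet_v1.0) and is 1 of 1850625 cytosines measured. The study counted the 10 kb upstream of a transcription start as promoter, and the distance of the site from that start is not given here.

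The study asked whether extra methionine fed to prepubertal rams changes the methylation of their sperm and the transcripts of the embryos they sire. Polypay rams received a basal diet (control: Ram410, Ram423 and Ram444) or the same basal diet with rumen-protected methionine, which is coated so that rumen microbes do not break it down, as a top-dress of 1.5 g or 0.22% (methionine-treated: Ram424, Ram498 and Ram511). Sperm of each ram was analysed by reduced representation bisulfite sequencing (RRBS), which reads methylation at single cytosines in CpG-rich fragments of the genome. Blastocysts were flushed from superovulated ewes mated with these rams and combined into 12 pools of 5 embryos, 6 per diet, and their RNA underwent whole transcriptome amplification. Each control ram sired 2 pools, whereas Ram424 sired 4 of the 6 methionine pools, and Ram498 and Ram511 sired 1 each. Pools with the same sire are related, so the pools are not independent replicates of a diet. The study used fewer ewes than pools, so some pools also have a dam in common. The labels used here do not name the ewes. As each ram was put to its own ewes, differences between rams or diets cannot be told apart from differences between ewes.

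In canonical Wnt signalling, a secreted Wnt protein binds a Frizzled receptor together with the co-receptor LRP6. Without a Wnt signal, a cytoplasmic complex built on AXIN1 or AXIN2 and APC marks beta-catenin for destruction. With a signal, beta-catenin persists and joins TCF transcription factors at their target genes, among which AXIN2 is a widely used readout. ZNRF3 and RNF43 are membrane-bound ubiquitin ligases that remove Frizzled receptors from the cell surface, and so are antagonists of the pathway. In early mammalian embryos the pathway is known for its part in the balance between pluripotent and differentiating cells, where TCF7L1 acts mainly as a repressor.

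The totals of the 12 pools ran from 1017847 to 2398589 counts. These totals are a small part of the reads per pool that the study reports, and the reason was not tested. Pools Embryo444_2 (control) and Embryo511_1 (methionine) stood apart from the rest, with a median Spearman correlation with the other pools of 0.582 and 0.600, against 0.820 to 0.857 for the other 10. Markers of trophectoderm, the outer layer that defines a blastocyst, summed to 224 and 194 CPM (counts scaled to the library total) in these pools over 7 measured markers, against 5252 to 14350 CPM in the other 10. ELF5 was the exception, with 29.0 CPM in Embryo444_2 and 66.4 CPM in Embryo511_1, against 17.1 to 128 CPM in the other 10. The sum of 3 inner cell mass markers was 98.4 and 214 CPM against 420 to 1195 CPM. NANOG did not follow this sum and, at 9.91 and 7.93 CPM, lay within the 5.10 to 16.3 CPM of the other 10. The sum of 4 hypoblast markers was 233 and 276 CPM against 417 to 952 CPM. The low hypoblast sum was that of GATA6 (38.9 and 66.4 CPM), whereas GATA4 was highest of all pools in Embryo511_1 (94.2 CPM) and PDGFRA in Embryo444_2 (166 CPM). Conversely, the 3 oocyte markers summed to 661 CPM in Embryo511_1 and 77.2 CPM in Embryo444_2 against 53.8 to 105 CPM, and the 2 leukocyte markers to 256 and 127 CPM against 58.9 to 96.9 CPM. The high leukocyte sum was that of PTPRC (254 and 121 CPM), while CD68, at 1.98 and 6.37 CPM, was lower than in any other pool. The 3 endometrium markers came to 77.3 CPM in Embryo511_1 and 117 CPM in Embryo444_2, against 54.3 to 97.0 CPM. The label of a blastocyst therefore went against the trophectoderm sum, though not against ELF5, in 1 pool of each diet. Results are given with and without these pools. In pooled embryos, fewer cells of a type and less RNA per cell cannot be told apart.

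At the cytosine in the ZNRF3 promoter, sperm of the control rams was almost fully methylated and sperm of the methionine-treated rams was not. Methylated reads made up 13 of 15 in Ram410 (86.7%, 95% Wilson interval 62.1 to 96.3), 17 of 18 in Ram423 (94.4%, 74.2 to 99.0) and 18 of 19 in Ram444 (94.7%, 75.4 to 99.1). In the methionine-treated rams they made up 9 of 21 in Ram424 (42.9%, 24.5 to 63.5), 5 of 19 in Ram498 (26.3%, 11.8 to 48.8) and 5 of 12 in Ram511 (41.7%, 19.3 to 68.0). The 3 rams of one diet did not overlap the 3 of the other, as at 2.43% of all cytosines. The mean level was 91.9% ± 4.58 (SD, n = 3) in control and 36.9% ± 9.23 (SD, n = 3) in methionine-treated rams, a difference of -55.0 points. The study picked this cytosine on the same rams, so the difference is given as a description. The cytosine was among those called by the logistic regression with a chi-square test, which is no independent evidence, and it was not called with an F test. Intervals cover counting error only, and the 12 to 21 reads behind each level leave a wide interval in a single ram.

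The nearest listed cytosines were highly methylated under both diets. At position 77502272, 21 bp before the site by coordinate and on the same strand, the levels were 86.7% in Ram410, 88.9% in Ram423 and 89.5% in Ram444. The same cytosine had 66.7% in Ram424, 89.5% in Ram498 and 83.3% in Ram511. Each ram had as many reads there as at the site itself. At position 77502169, 124 bp before the site and on the plus strand, every ram of either diet was at 87.5% or above. The mean of these 2 neighbours was 90.8% ± 3.68 (SD, n = 3) in control and 87.0% ± 7.17 (SD, n = 3) in methionine-treated rams. In Ram498 the site was at 26.3% while the cytosine 21 bp away, covered by the same number of reads, was at 89.5%. The cytosine opposite the site on the other strand of the CpG is not listed. Bisulfite reads show an unmethylated cytosine and a C-to-T sequence variant alike, and a variant at the site was not tested. In the annotation of the study, windows that span the site overlap a LINE repeat.

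Beyond these neighbours the methylation of the ZNRF3 region was low in all 6 rams. No cytosine was listed in the 10000 bp before the site other than the 2 neighbours, and the next one after it lay 903 bp away. From there to 1966 bp, 138 cytosines had a mean level of 1.06% ± 0.394 (SD, n = 3) in control and 0.702% ± 0.452 (SD, n = 3) in methionine-treated rams. A further 51 cytosines at 2014 to 2511 bp had 2.52% ± 0.884 in control and 2.38% ± 0.860 in methionine-treated rams (SD, n = 3 each), with a highest level of 24.0% in any ram. Over all 189 cytosines more than 200 bp from the site, the mean was 1.45% ± 0.452 in control and 1.16% ± 0.113 in methionine-treated rams (SD, n = 3 each). The difference of -0.295 points did not exceed the spread of the rams (exact two-sided permutation test over rams, p = 0.4, smallest possible p = 0.1).

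**Figure D1:**
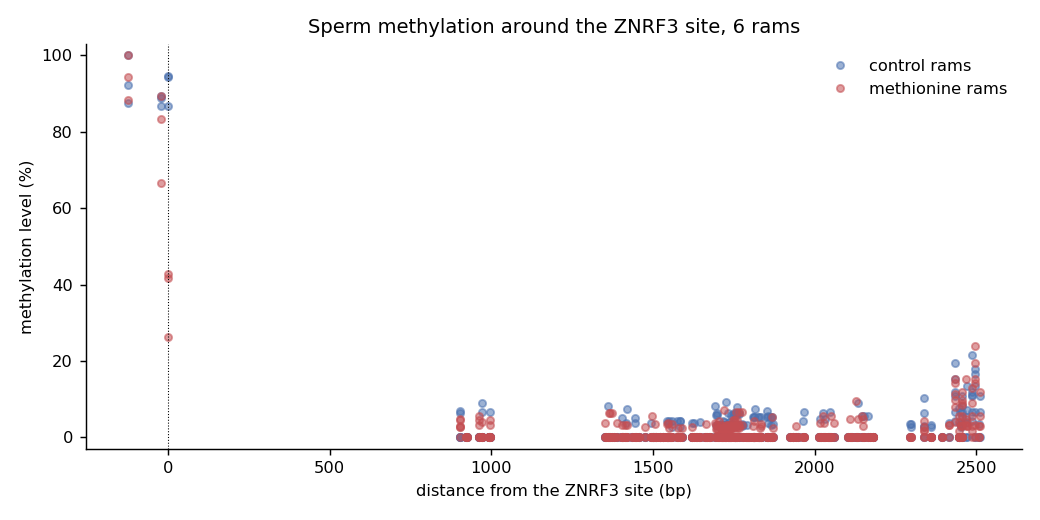
Sperm methylation level in percent (y axis) at each listed cytosine by its distance from the ZNRF3 site in bp (x axis), 1 point per ram, blue for the 3 control and red for the 3 methionine-treated rams. The 2 neighbours before the site lie between 66.7% and 100% in every ram, the site itself separates the diets, and all cytosines from 903 bp onwards lie at or below 24.0%.

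With a q under 0.01 and diets over 20 points apart, 341 cytosines of the genome were called (0.0184%). Of the 191 other cytosines within 10000 bp of the ZNRF3 site, 0 were called by the logistic regression, with a chi-square or an F test. An unadjusted p under 0.05 was reached by 1 of them, against 2.94% of all cytosines, and in 1 other the rams of the diets did not overlap. The former lay 970 bp after the site, with 9.09% and 6.67% in Ram410 and Ram423 and 0% in the other 4 rams. Its adjusted value was q = 0.841. Of the 191 cytosines, 189 had a mean of 1.45% in control rams and at most 24.0% in any ram. A lower level in methionine-treated rams, like that at the site, could therefore be called only at the 2 neighbours.

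In the embryos, no difference between the diets of the sires passed the test in any of the 8 Wnt genes. With the quasi-likelihood test of edgeR, 0 of the 8 members and 0% of all 16488 genes had an FDR under 0.05, and the smallest FDR of any gene was 0.584. The likelihood-ratio test called 5 and DESeq2 16 of all genes, and neither called a member. An unadjusted p under 0.05 was reached by 0 of the 8, against 7.92% of all genes, and the pools of the diets overlapped for all 8, whereas 0.352% of all genes had no overlap. The median log2 fold change of the members, methionine over control, was -0.19, with 3 higher and 5 lower, against 0.01 for all genes, of which 8325 were higher and 8163 lower. Without Embryo444_2 and Embryo511_1 the members' median was -0.18, with 2 higher and 6 lower, and again 0 were called. The direction turned with single samples: without Embryo444_2 alone 6 members were higher and 2 lower (median 0.02), without Ram444 5 were higher and 3 lower (median 0.11), and without Ram424 the median was 0.04. Levels are CPM scaled by the TMM method and are not divided by gene length, so they are compared between pools and not between genes.

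ZNRF3, the membrane ligase with the sperm site, had 79.8 and 65.9 CPM in the pools of Ram410, 71.4 and 100.1 CPM in those of Ram423 and 112 and 179.8 CPM in those of Ram444. In the methionine pools it had 73.1, 63.4, 75.5 and 68.3 CPM for Ram424, 87.9 CPM for Ram498 and 152 CPM for Ram511. The highest pool of each diet was a pool that stands apart, and the remaining pools lay between 65.9 and 112 CPM in control and between 63.4 and 87.9 CPM in methionine. The diets overlapped in part, with Embryo423_2 and Embryo444_1 above all of these methionine pools. The mean was 101.5 ± 42.2 CPM (SD, n = 6) in control and 86.7 ± 32.9 CPM (SD, n = 6) in methionine pools. The log2 fold change was -0.23 (standard error 0.29, 95% interval -0.85 to 0.39, edgeR FDR = 0.853). An exact permutation test of log2 CPM gave p = 0.478 over pools and p = 0.8 over rams, with a smallest possible p of 0.1 for rams. Without Embryo444_2 alone the log2 fold change was 0.01, without Ram424 0.24 and without Ram444 0.12, so the direction rested on these samples. Without both pools that stand apart it was -0.23 (standard error 0.21, edgeR FDR = 0.684).

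RNF43, the paralogue of ZNRF3 with the same action on Frizzled receptors, ran from 23.6 through a median of 36.7 to 92.0 CPM in control pools and from 22.9 through 28.4 to 60.5 CPM in methionine pools. The upper end of both ranges was again a pool that stands apart, and the other 10 lay between 22.9 and 45.9 CPM. Its log2 fold change was -0.32 (standard error 0.34, 95% interval -1.05 to 0.40, edgeR FDR = 0.825). Without Embryo444_2 it was 0.03, and without Ram444 0.10.

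LRP6, the co-receptor that starts signal transduction, ran from 82.9 through a median of 93.0 to 190.4 CPM in control pools and from 80.5 through 98.8 to 215 CPM in methionine pools. Its 10 other pools kept within a 1.43-fold range, 80.5 to 115 CPM, and in these the diets overlapped. The log2 fold change was 0.10 (standard error 0.30, 95% interval -0.52 to 0.73, edgeR FDR = 0.945). It became -0.16 without Embryo511_1 and -0.02 without Ram423.

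The scaffolds of the destruction complex did not separate by diet either. AXIN1 ran from 34.0 through a median of 38.8 to 55.3 CPM in control pools and from 32.4 through 38.7 to 65.4 CPM in methionine pools, and its log2 fold change was 0.01 (standard error 0.25, 95% interval -0.51 to 0.53, edgeR FDR = 0.994). The medians of the diets were nearly equal, and the sign changed with many of the samples left out in turn, for example to -0.16 without Embryo511_1. AXIN2, both a scaffold and a target gene of the pathway, ran from 14.8 through 22.7 to 38.9 CPM in control pools and from 12.8 through 17.8 to 35.7 CPM in methionine pools. Its log2 fold change was -0.27 (standard error 0.33, 95% interval -0.95 to 0.42, edgeR FDR = 0.847), and 0.11 without Ram424. APC, the large scaffold that binds beta-catenin, ran from 120 through 138 to 270.4 CPM in control pools and from 112 through 132 to 195 CPM in methionine pools. For APC the log2 fold change was -0.15 (standard error 0.27, 95% interval -0.71 to 0.41, edgeR FDR = 0.902), 0.08 without Embryo444_2 and 0.13 without Ram444.

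The nuclear factors behaved differently from each other. TCF7L2, which can activate or repress depending on beta-catenin, ran from 16.6 through a median of 35.8 to 45.0 CPM in control pools and from 12.0 through 25.9 to 30.0 CPM in methionine pools. Of the 6 control pools, 4 were above every methionine pool. Its log2 fold change of -0.47 (standard error 0.31, 95% interval -1.12 to 0.18, edgeR FDR = 0.72) was the largest in size among the members and the only one that kept its sign under all 26 alternatives, from -0.62 to -0.33. The exact permutation test gave p = 0.158 over pools and p = 0.2 over rams, so the difference did not exceed the spread of the samples. TCF7L1, the repressor, ran from 34.0 through 54.3 to 71.5 CPM in control pools and from 9.91 through 64.7 to 70.2 CPM in methionine pools. The lowest value of each diet belonged to a pool that stands apart. The log2 fold change of TCF7L1 was 0.14 (standard error 0.35, 95% interval -0.60 to 0.88, edgeR FDR = 0.934). It became -0.07 without Ram444 and -0.34 without Ram424.

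**Figure D2:**
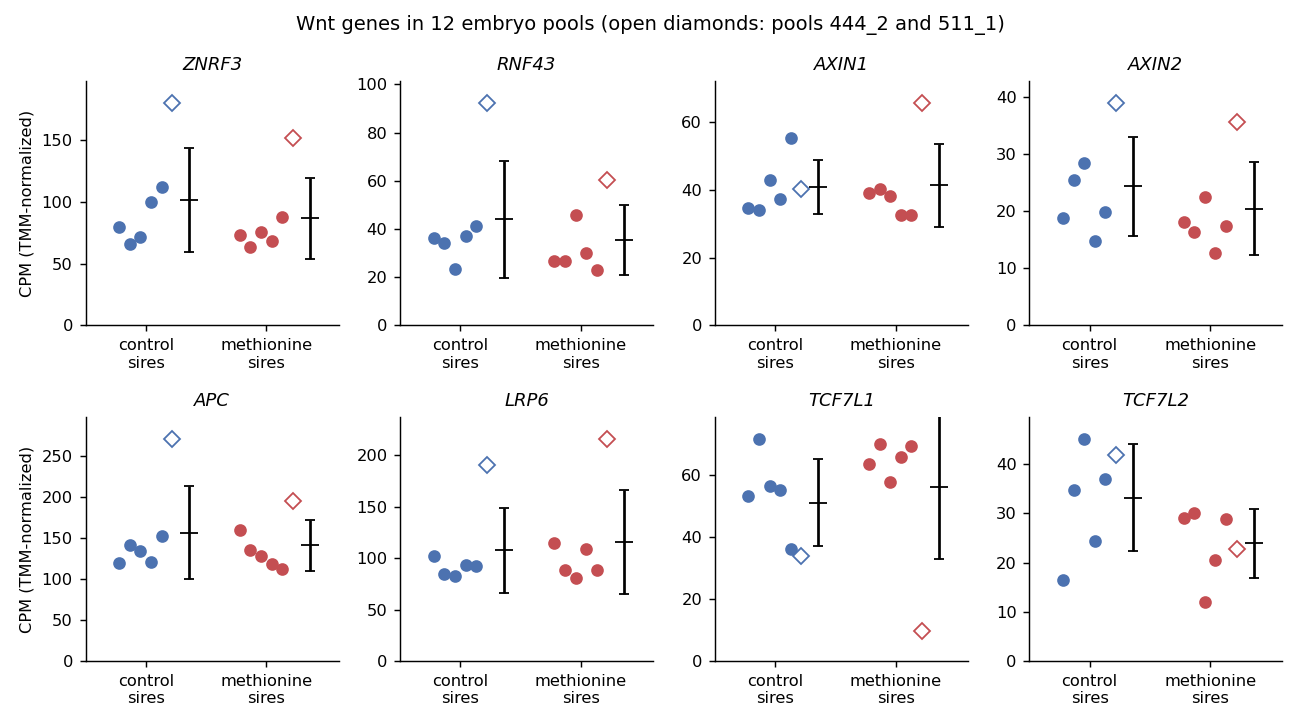
Level of the 8 Wnt genes in CPM (y axes, 1 panel per gene, each from 0) in the 6 pools from control sires (blue) and the 6 from methionine-treated sires (red), with black bars for mean and SD. Open diamonds mark Embryo444_2 and Embryo511_1, which hold the highest ZNRF3, RNF43, AXIN2, APC and LRP6 and the lowest TCF7L1 of their diet, while the other pools of the diets overlap.

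**Figure D3:**
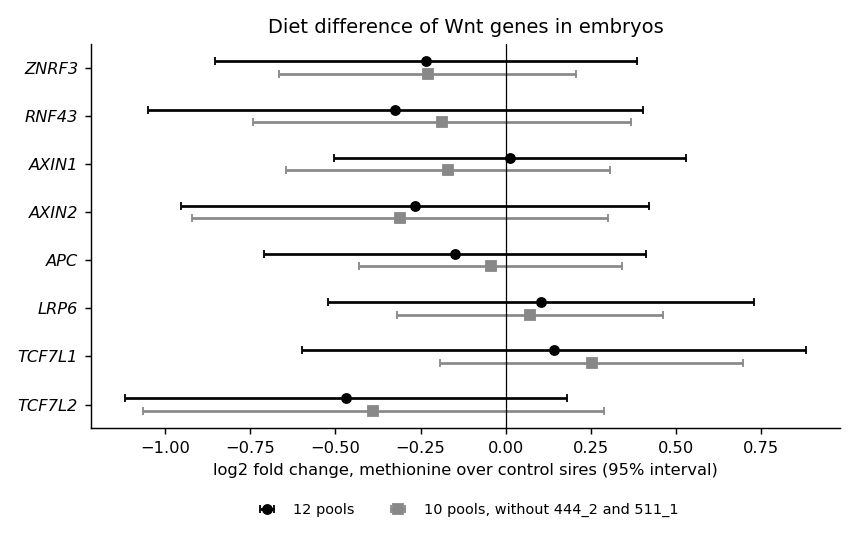
Log2 fold change of each Wnt gene, methionine over control sires (x axis), with its 95% interval from edgeR, for 12 pools (black circles) and for 10 pools without Embryo444_2 and Embryo511_1 (grey squares). All intervals include 0, and ZNRF3 is at -0.23 in both.

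The 95% interval of ZNRF3 covers log2 fold changes from -0.85 to 0.39, so these data do not tell no difference from one of such a size. Leaving out the pools that stand apart lowered the coefficient of variation of ZNRF3 over all remaining pools from 39.2% to 19.8%, that of APC from 29.8% to 11.7% and that of LRP6 from 39.3% to 12.3%. Counting error alone gives 8.70%, 6.81% and 7.97% for these genes. TCF7L2 is the exception, with 34.8% over 12 pools, 35.4% over 10 and 16.1% from counting error. Its raw counts were 17 to 63 per pool.

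Several members had their extreme level in Embryo444_2 and Embryo511_1. Ratios here are to the geometric mean of the other 5 pools of the diet, that is, the mean taken on log2 CPM. ZNRF3 was 2.12 times this mean in Embryo444_2 and 2.05 times in Embryo511_1. RNF43 was 2.65 and 2.0 times, LRP6 2.08 and 2.24 times, APC 2.01 and 1.50 times, and AXIN2 1.81 and 2.0 times as high. These 5 of the 8 members were the highest of their diet in both pools, as were 11.2% of all genes. AXIN1 was 1.01 and 1.77 times and TCF7L2 1.38 and 0.993 times the geometric mean of the other 5 pools, so they were not high in both. TCF7L1 went the other way, at 0.646 times in Embryo444_2 and 0.169 times in Embryo511_1, and was the lowest of its diet in both, as were 15.7% of all genes. The median log2 ratio of the members was 0.93 and 0.91, against 0.01 and -0.00 for all genes. The 69 further Wnt genes described below did not share this, with 10.1% highest and 15.9% lowest of their diet in both pools and median log2 ratios of 0.11 and -0.11. These pools also carry the low trophectoderm sums and, in Embryo511_1, the high oocyte sum given above, and the part of these markers in the result was not tested. Each diet holds 1 of these pools.

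Over the 12 pools the median Pearson correlation of log2 CPM between pairs of members was 0.47 (28 pairs), and without Embryo444_2 and Embryo511_1 it was 0.00. ZNRF3 correlated with RNF43 at 0.83 over 12 pools and 0.39 over 10, with LRP6 at 0.80 and 0.00, with APC at 0.77 and -0.03 and with AXIN2 at 0.62 and -0.16. The coefficients with LRP6, APC and AXIN2 thus rested on the pools that stand apart, and that with RNF43 in part. With AXIN1 the coefficient was 0.58 over 12 pools and 0.47 over 10, and with TCF7L2 0.21 and 0.05. With TCF7L1, ZNRF3 had a correlation of -0.78 over 12 pools and -0.77 over 10. Among the remaining pools Embryo444_1 had both the highest ZNRF3 (112 CPM) and the lowest TCF7L1 (36.2 CPM). The pools share sires and an amplification step, and the coefficients are descriptions.

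The 5 tested genes whose log2 CPM followed ZNRF3 most closely over the 12 pools were ANGPTL8, SOBP, NMT2, HPGD and LOC101115734. Their Pearson coefficients were 0.943 for ANGPTL8, 0.939 for SOBP, 0.938 for NMT2, 0.935 for HPGD and 0.933 for LOC101115734, with 12 pools each. NMT2, which attaches myristate to proteins, ran from 33.6 CPM in Embryo423_1 to 124 CPM in Embryo511_1, with 93.4 CPM in Embryo444_2. HPGD, a prostaglandin-degrading enzyme, ran from 12.3 to 53.1 CPM. Without the 2 pools the coefficients were 0.906, 0.851, 0.912, 0.753 and 0.803 in the same order. The 5 genes were chosen on 12 pools that include these 10, so the second set of values is not independent, and over the 10 pools HPGD ranked 203rd and LOC101115734 99th. RNF43 was 137th in this order over 12 pools and APC 375th.

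ZNRF3 in sperm and in embryos can be set side by side for the 6 rams. The study collected this semen earlier than the matings, so the sperm measured were not those that sired the embryos. Ram410 had 86.7% methylation at the site and a mean of 72.8 CPM in its embryo pools, Ram423 94.4% and 85.8 CPM, and Ram444 94.7% and 146 CPM. Ram424 had 42.9% and 70.1 CPM, Ram498 26.3% and 87.9 CPM, and Ram511 41.7% and 152 CPM. The sperm levels fall into 2 separate clusters by diet, each with 3 rams, which is too few for a correlation within a cluster, and none was computed. The embryo levels of the methionine-treated rams covered the range of the control rams, from 70.1 to 152 CPM against 72.8 to 146 CPM. Both upper ends hold a pool that stands apart, and without these pools the methionine-treated rams were at 70.1 and 87.9 CPM against 72.8 to 112 CPM, with no value for Ram511.

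**Figure D4:**
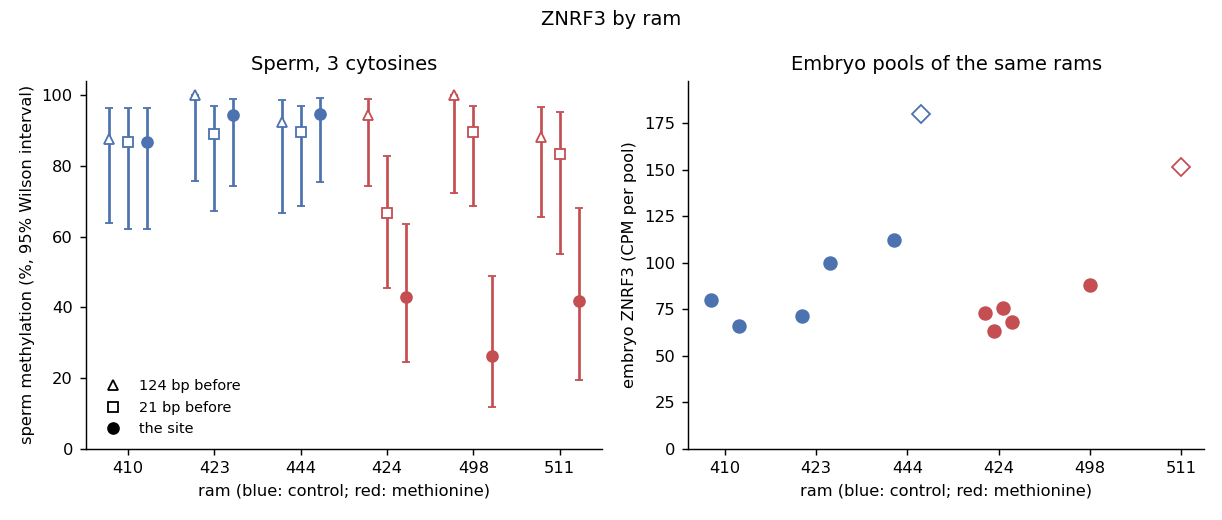
Left, sperm methylation in percent (y axis) at the ZNRF3 site (filled circles) and at the cytosines 21 bp (squares) and 124 bp (triangles) before it, by ram (x axis), with 95% Wilson intervals. Right, ZNRF3 in CPM (y axis) in each embryo pool of the same rams, with open diamonds for Embryo444_2 and Embryo511_1; control rams are blue and methionine-treated rams red, and the embryo levels overlap between diets although the site does not.

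The rest of the pathway was examined in a list of 86 further genes, of which 79 were in the table and 69 passed the filter. In the edgeR fit, 0 of the 69 had an FDR under 0.05, and 5 had an unadjusted p under 0.05 (2 higher, 3 lower), a share of 7.25% against 7.92% of all genes. The median log2 fold change of the 69 genes was -0.04, with 29 higher and 40 lower. Without Embryo444_2 and Embryo511_1, 9 had an unadjusted p under 0.05, a share of 13% against 11.9% of all genes. Both shares lie near the background. All genes named below overlapped between the diets.

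Among Wnt ligands and the genes of their secretion, 15 of 21 were tested, with 3 higher, 12 lower and a median of -0.30, or -0.19 without the 2 pools. PORCN, the acyltransferase that attaches a lipid to Wnt proteins before secretion, was at 12.0 to 27.1 CPM in control pools and 21.8 to 63.1 CPM in methionine pools. Its log2 fold change of 1.11 (standard error 0.32) had an unadjusted p of 0.00309 and an edgeR FDR of 0.584, and the exact permutation test over rams gave p = 0.2. The ligand WNT10A was at 4.49 to 34.1 CPM in control pools and 3.40 to 13.8 CPM in methionine pools (log2 fold change -1.25, standard error 0.48, edgeR FDR = 0.585). Its high control values, 34.1 and 31.9 CPM, were both pools of Ram444.

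Of the receptors, 10 of 11 were tested, with 6 higher, 4 lower and a median of 0.02. The Frizzled receptor FZD10 had a mean of 12.6 ± 5.54 CPM (SD, n = 6) in control and 24.4 ± 11 CPM (SD, n = 6) in methionine pools, with a log2 fold change of 0.96 and an edgeR FDR of 0.585. Its pools of Ram424 were at 18.7 to 42.5 CPM. Those of Ram498 and Ram511, at 18.1 and 11.9 CPM, fell among the control pools (7.08 to 19.8 CPM). For FZD10 the exact permutation test over rams gave p = 0.2. LRP5, the other co-receptor, had 43.6 ± 6.11 and 31.6 ± 6.57 CPM (log2 fold change -0.47, edgeR FDR = 0.644). In LRP5 the pools of Ram424 were at 25.4 to 29.5 CPM, while those of Ram498 and Ram511, at 39.1 and 40.6 CPM, fell among the control pools (38.4 to 55.2 CPM). R-spondins, which protect Frizzled receptors by binding ZNRF3 or RNF43 together with LGR receptors, gave 5 tested genes of 7, with 3 higher and 2 lower. LGR4 had a log2 fold change of 0.42 (edgeR FDR = 0.707) and RSPO1 one of -0.46 (edgeR FDR = 0.758), or -0.77 without the 2 pools (unadjusted p of 0.0426, edgeR FDR = 0.407).

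Of the secreted and membrane inhibitors, 12 of 15 were tested, with 4 higher, 8 lower and a median of -0.15. APCDD1, a membrane glycoprotein that binds Wnt and LRP5, was at 10.7 to 59.7 CPM in control and 13.6 to 25.1 CPM in methionine pools. In 5 of 6 control pools it was above every methionine pool, and Embryo423_1 was the exception with 10.7 CPM. Its log2 fold change of -1.14 (standard error 0.35) had an unadjusted p of 0.00457 and an edgeR FDR of 0.584. The exact permutation test over rams gave p = 0.1, the smallest possible. WNT10A, LRP5 and TBXT reached the same value, and the share of all genes that did was not computed. These genes were named because their p was among the smallest of their role, so how many reached this value is no result. WIF1, a secreted Wnt-binding protein, had a log2 fold change of -0.49 (edgeR FDR = 0.708), or -0.24 without the 2 pools, with 57.3 CPM in Embryo444_2.

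Cytoplasmic transduction genes (14 of 16 tested) were split into 7 higher and 7 lower, and nuclear factors (11 of 12 tested) into 6 higher and 5 lower, both with a median of 0.02. CSNK1D, a casein kinase, had a log2 fold change of 0.72 (edgeR FDR = 0.663) that fell to 0.23 without the 2 pools. Its level in Embryo511_1 was 342 CPM. DVL3, which relays the signal from Frizzled receptors, had a log2 fold change of 0.37 (edgeR FDR = 0.767). TCF7, a further TCF factor, had 171 CPM in Embryo511_1 against 25.5 to 60.3 CPM in the other 11 pools, and its log2 fold change turned from 0.52 (edgeR FDR = 0.754) to -0.13 without the 2 pools. PYGO1, a beta-catenin co-factor, had a log2 fold change of -0.59 (edgeR FDR = 0.655), or -0.25 without the 2 pools, with 129.5 CPM in Embryo444_2. Of the target genes, 2 of 4 were tested. TBXT had a log2 fold change of -0.51 (edgeR FDR = 0.719), or -0.21 without the 2 pools, with 64.4 CPM in Embryo444_2. CCND1 had -0.02 (edgeR FDR = 0.994), or -0.63 without the 2 pools, with 115 CPM in Embryo511_1.

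**Figure D5:**
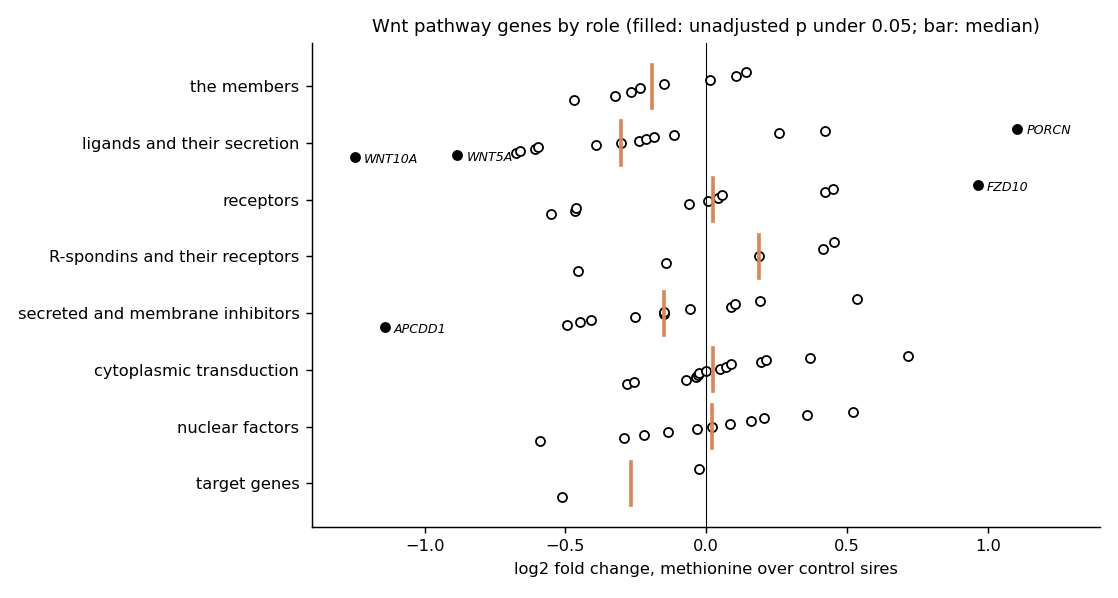
Log2 fold change, methionine over control sires (x axis), of the 8 members and the 69 further Wnt pathway genes tested, by role (y axis), 1 circle per gene, with orange bars for the medians. Filled and named circles are the 5 genes with an unadjusted p under 0.05, none of which had an FDR under 0.05.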

How the data were processed

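The sperm reads were mapped by the authors with Bismark on build Oar_rambouillet_v1.0 and rid of duplicates through molecular barcodes. The deposited counts are of methylated and of unmethylated reads at a cytosine in a ram, with at least 10 reads in each ram. For the embryos, the authors trimmed the reads with Trimmomatic, aligned them with STAR and deposited raw read counts per gene and pool. Whether counting used strand is not given in the sources used here, and overlapping genes cannot be told apart.

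Here, a gene was kept if over 3 pools had 15 counts or more. The study describes the same filter and reports a larger number of genes kept. Kept genes were normalized by TMM and tested with edgeR 4.0.16 (quasi-likelihood, R 4.3.3) with Benjamini-Hochberg adjustment. Log2 CPM used a prior count of 2. The common biological coefficient of variation was 0.450. By limma 3.58.1, pools sired by the same ram had a consensus correlation of 0.263. The part of shared ewes in this correlation was not tested. Nothing in the labels tells whether pools of a ram were handled together. The edgeR p-values over pools measure the spread between pools and take those of the same ram as independent. Each cytosine was tested by a logistic regression on read counts with the overdispersion set to at least 1 and a chi-square test, without the age covariate of the study, since the labels give no age. At the ZNRF3 site the overdispersion was 1.0, so the chi-square p-value there measures counting error and not the spread between rams. Median coverage was 22 to 39 reads per ram. Exact permutation tests were two-sided, over 924 assignments of pools or 20 of rams. Both tests were first tested on simulated data. Python 3.11.15, pandas 2.3.3 and scipy 1.17.1 were used.

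Alternatives were the likelihood-ratio test, DESeq2 1.42.0, RLE normalization, other filters, summed pools, the ram as a random effect, each pool or ram left out, and for sperm an F test, no overdispersion, 20 reads, other thresholds and windows. The members and lists were chosen with earlier results of these data known, and leaving out Embryo444_2 and Embryo511_1 together was added after the values were seen. Named besides the members are the 5 genes most correlated with ZNRF3 over 12 pools and, of the further Wnt genes, the 2 of each role with the smallest p and any with an FDR under 0.05. The markers counted 8 listed for trophectoderm, 5 for inner cell mass, 4 for hypoblast, 5 for oocyte, 3 for leukocytes and 3 for endometrium; of 4 cumulus and granulosa markers 0 were in the table.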

Additional observations from a re-analysis of the deposited data

Results flagged for a closer look

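In 7 of the 16 groups of 6 pools (8 members in 2 diets), 1 pool lay far from the other 5, with a gap over 0.625 of the whole range. For independent and normally distributed values, chance gives such a pool in about 1 of 20 groups. This rate is nominal here, since CPM values need not be normal, pools share sires and all genes share the same pools. Over all 16488 tested genes, 16.7% of the groups had such a pool, and 65.1% of these were Embryo444_2 or Embryo511_1. All 7 of the members' were one of these pools. In Embryo444_2 these were RNF43 with 92.0 CPM, APC with 270.4 CPM and LRP6 with 190.4 CPM. In Embryo511_1 they were ZNRF3 with 152 CPM, AXIN1 with 65.4 CPM, LRP6 with 215 CPM and, at the low end, TCF7L1 with 9.91 CPM. The same pools had the lowest trophectoderm sums (224 and 194 CPM), and the part of this in the members' levels was not tested.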

How the results depend on the processing

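Of the 8 members and of the 69 further Wnt genes, 0 were called under any of the 26 alternatives for the embryos. Over all genes, the count of 0 became 5 with the likelihood-ratio test, 16 with DESeq2 and 1 without Embryo444_2 and Embryo511_1, and stayed 0 with each pool or ram left out. The direction of TCF7L2 never changed. ZNRF3 turned to 0.053 with pools summed per ram, AXIN1 to -0.002 with the ram as a random effect and -0.17 without both pools that stand apart, and TCF7L1 to -0.037 with summed pools and -0.10 with the random effect. With 1 pool or ram left out, log2 fold changes ran from -0.46 to 0.24 for ZNRF3, -0.54 to 0.10 for RNF43, -0.16 to 0.26 for AXIN1, -0.48 to 0.11 for AXIN2, -0.28 to 0.13 for APC, -0.16 to 0.49 for LRP6 and -0.34 to 0.35 for TCF7L1. Apart from the samples left out, the cause was not tested. No paired analysis was possible because the diets share no ram or replicate number.

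The 341 called cytosines became 0 with an F test, 5905 without overdispersion, 61 with at least 20 reads, 529 at q under 0.05 and 446 to 1424 with a ram left out, the last without Ram424. The ZNRF3 site itself was called in all of these except the F test and the minimum of 20 reads, which it did not reach. The study picked the site on the same rams, so these calls and the range of its difference are descriptions and no independent evidence. Near the site 0 others were called throughout, but only the 2 neighbours were methylated enough to show a lower level like that at the site. The mean difference around the site was 0.198 points within 1000 bp and -0.556 to -0.161 with a ram left out. The difference at the site ran from -57.96 to -49.69 points, the latter without Ram498. Merging the strands of the site was not run, since the opposite cytosine is not listed. The level of TCF7L1 in Embryo511_1 rests on 10 reads, and that of the site on 12 to 21 reads per ram.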

Other observations

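Some Wnt ligands moved more once Embryo444_2 and Embryo511_1 were left out, and they were chosen here after their values were seen. WNT8A, a ligand of early embryos, had a log2 fold change of -0.61 (standard error 0.41) over 12 pools and -1.10 (standard error 0.37, edgeR FDR = 0.298) over 10. It was at 29.3 to 109.7 CPM in control pools and at 17.7 to 49.98 CPM in methionine pools other than Embryo511_1, which had 81.3 CPM. The highest control values of WNT8A, 71.4 and 109.7 CPM, were both pools of Ram423, against 29.3 to 53.2 CPM in the other control pools. WNT3 had -0.21 over 12 and -0.89 over 10 pools (edgeR FDR = 0.408), with 113 CPM in Embryo511_1, and WNT3A had -0.66 and -1.04 (edgeR FDR = 0.388), on 1 to 20 counts per pool. WNT5A went the other way, from -0.88 (edgeR FDR = 0.616) over 12 pools to -0.60 (edgeR FDR = 0.514) over 10. WNT10B turned from -0.11 over 12 pools to 0.52 (edgeR FDR = 0.556) over 10, and WNT8B was higher in both, at 0.42 and 0.30. None had an FDR under 0.05 in either set of pools.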
